A study of Mus musculus with 12 samples.

Results

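Gpr84, Hcar2 and Acod1 encode a pair of metabolite receptors and the enzyme that makes itaconate, and all 3 transcripts were low in uninjured-side cortex and higher in impacted cortex 2 hr after injury. They are 3 of the 55487 genes in the count table, found by matching their Ensembl identifiers to symbols. The members were selected on their higher CPM on the injured than on the opposite side, so that difference is described without a test. The genotype comparisons, which did not define the set, are tested. The rule behind the set also speaks of proton receptors, but none is among the 3 genes.

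Cortical RNA was sequenced 2 hr after CCI (controlled cortical impact), in which a piston strikes the exposed mouse brain. The 4 groups were the cortex under the impact (ipsilateral) and the cortex of the other hemisphere (contralateral) from mice of 2 genotypes, with 3 libraries in each. The genotypes were CX3CR1cre-er/+, called wt, and CX3CR1cre-er/+ with STING fl/fl, called cKO. All mice thus had CCI and carried a Cre gene in the Cx3cr1 locus, which is active in microglia and monocytes. The description of the series gives the floxed mice a Cx3cr1 allele with plain Cre, tamoxifen is not mentioned, and age and sex are not given. There was no sham-operated group, so surgery and impact cannot be told apart. Whether each library is from a different animal is not stated, so a p-value measures the spread between these libraries.

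GPR84 is a Gi-coupled receptor that responds to medium-chain fatty acids and is induced in myeloid cells, including microglia, by inflammatory stimuli. HCAR2 is a Gi-coupled receptor of the ketone body beta-hydroxybutyrate and of niacin, found on neutrophils, macrophages, microglia and fat cells. ACOD1 (also called IRG1) is a mitochondrial enzyme of activated macrophages that removes a carboxyl group from cis-aconitate to form itaconate, which inhibits succinate dehydrogenase and dampens inflammatory signalling.

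The libraries held 7958931 to 33567194 counts, and cKO ipsilateral library 3 was the shallowest. A count of 3 corresponded to 0.0881 CPM (counts scaled to library size) in the deepest library and 0.373 CPM in the shallowest. The floxed gene, Tmem173 (STING), had 2.49 to 3.18 CPM in wt and 0.762 to 1.96 CPM in cKO contralateral cortex. On the ipsilateral side it had 2.34 to 3.69 CPM in wt and 1.05 to 2.44 CPM in cKO, and these ranges overlap. Mitochondrially encoded genes held 4.27 to 5.45% of counts in contralateral and 5.31 to 8.16% in ipsilateral libraries. The summed level of 12 markers of cortical neurons and glia was 8220 to 9670 CPM over all 12 libraries.

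The sequences at the start of Gpr84 and Acod1 are shown, since both genes had a promoter window in the set used. Hcar2, whose transcript was also higher on the injured side, had none. The sequences come from RefSeq promoter windows of GRCm38.p6, which run from 250 bases before to 50 after each start. The printed stretches are the upstream parts of those windows. The Gpr84 stretch ends at the start annotated by GENCODE M21, and the Acod1 stretch runs 30 bases past it, which takes in TATAAA. Capitals mark the only matches to any of 6 motifs searched on both strands. They are GAGGAA, a form of the site bound by the myeloid factor PU.1, and TATAAA, the TATA box. Shorter parts of these patterns, such as GGAA, were not searched for. The first sequence lies at chr15:103310613-103310688 (minus strand) and the second at chr14:103046762-103047006 (plus strand).
Gpr84: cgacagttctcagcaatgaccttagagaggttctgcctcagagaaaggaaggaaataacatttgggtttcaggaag
Acod1: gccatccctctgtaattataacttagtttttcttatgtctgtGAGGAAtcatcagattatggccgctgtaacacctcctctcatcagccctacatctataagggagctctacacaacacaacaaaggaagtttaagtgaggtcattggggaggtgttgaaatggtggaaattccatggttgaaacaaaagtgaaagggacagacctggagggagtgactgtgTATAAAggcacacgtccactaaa

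In the Acod1 window GAGGAA began at −208 and TATAAA at −28 from the RefSeq start, and the matches share no base. The GENCODE start lies 35 bases upstream of the RefSeq one, so this TATAAA is inside the longer transcript. Of all 32851 windows of the same 300 bases, 28.3% held GAGGAA and 13.6% held TATAAA. The other motifs were NF-kB, AP-1 (TGANTCA), C/EBP (TTGCNNAA) and the interferon-stimulated response element, held by 8.46%, 7.81%, 10.8% and 3.44% of all windows. None of these 4 letter patterns was in the Acod1 window, and none of the 6 was in the Gpr84 window. A match of letters is a description of the window and not evidence of binding.

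Gpr84 (ENSMUSG00000063234) has 2 exons on mm10 chromosome 15 at 103308235 to 103310612, minus strand, and encodes 396 residues. In wt contralateral libraries 1 to 3 its level was 0.552, 0.587 and 1.12 CPM (16, 17 and 30 counts). The 3 wt ipsilateral libraries had 10.7, 14.2 and 8.64 CPM (260, 330 and 210 counts). The lowest injured-side library of wt thus lay well above the highest opposite-side one.

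In cKO contralateral libraries 1 to 3 Gpr84 had 0.499, 0.341 and 0.333 CPM (17, 8 and 7 counts). In cKO ipsilateral libraries 1 to 3 it had 18.2, 10.3 and 11.2 CPM (505, 256 and 90 counts). The sides did not overlap in cKO either, and cKO ipsilateral library 1 was the highest of all 12 libraries. The group means were 0.754 ± 0.32 and 11.2 ± 2.79 CPM (SD, n = 3) in wt contralateral and ipsilateral cortex, and 0.391 ± 0.0935 and 13.2 ± 4.34 CPM in cKO.

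Summed over each group and scaled to library size, Gpr84 counts were 14.9-fold higher on the injured side in wt (95% exact counting interval 11.5 to 19.6) and 34.4-fold higher in cKO (24.2 to 50.6). These intervals cover counting error only. The fitted log2 differences were 3.89 ± 0.32 (SE) in wt and 5.03 ± 0.4 in cKO. The antisense gene Gm49482 overlaps Gpr84 on the plus strand, and how strand was handled in counting is not given in the sources used here. Gm49482 held 0 to 3 counts in contralateral and 0 to 38 counts in ipsilateral libraries, and reads of the pair may not be separable.

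Hcar2 (ENSMUSG00000045502) is a gene of 1 exon on chromosome 5 at 123863570 to 123865499, minus strand, and encodes 360 residues. On the opposite side it was at or near 0. It had 0, 2 and 0 counts in wt contralateral libraries 1 to 3 and 2, 0 and 1 counts in cKO contralateral libraries 1 to 3. The injured-side wt libraries 1 to 3 held 0.41, 0.815 and 0.658 CPM (10, 19 and 16 counts). In cKO ipsilateral libraries 1 to 3 it had 0.757, 1.32 and 0.498 CPM (21, 33 and 4 counts). Every ipsilateral library thus lay above every contralateral one in CPM, although the value of cKO library 3 rested on 4 counts.

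The group means of Hcar2 were 0.628 ± 0.205 CPM in wt and 0.859 ± 0.421 CPM in cKO ipsilateral cortex (SD, n = 3). Pooled counts were 45 against 2 in wt, a ratio of 26.4 after scaling (95% counting interval 6.91 to 225). In cKO they were 58 against 3, a ratio of 25 (8.14 to 125). With so few contralateral counts, the sizes of these ratios are poorly bounded, and the fitted log2 differences of 4.46 ± 1.18 in wt and 4.42 ± 0.99 in cKO depend on the prior count.

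Acod1 (ENSMUSG00000022126) has 5 exons on chromosome 14 at 103046977 to 103056573, plus strand, and encodes 488 residues. It too was nearly unread on the opposite side, with 2, 2 and 0 counts in wt contralateral and 0, 1 and 0 counts in cKO contralateral libraries 1 to 3. The injured-side wt libraries 1 to 3 held 1.19, 2.1 and 0.905 CPM (29, 49 and 22 counts). In cKO ipsilateral libraries 1 to 3 it had 1.62, 3.48 and 0.622 CPM (45, 87 and 5 counts). The sides did not overlap in either genotype, and both the highest and the lowest injured-side library were cKO libraries.

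The means of Acod1 on the injured side were 1.4 ± 0.626 CPM in wt and 1.91 ± 1.45 CPM in cKO (SD, n = 3). Pooled counts were 100 against 4 in wt, a scaled ratio of 29.4 (95% counting interval 11.1 to 110). In cKO they were 137 against 1, a ratio of 177 (31.3 to 7040). The fitted log2 differences were 4.75 ± 1.05 in wt and 6.85 ± 1.96 in cKO. With 4 and 1 contralateral counts, the sizes of these ratios and differences are poorly bounded, and the counting intervals of the genotypes overlap.

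All 3 genes had non-overlapping sides in both genotypes, as did 10.5% of the 16836 tested genes in wt and 10.8% in cKO, in the direction of higher ipsilateral values. By edgeR (quasi-likelihood test, Benjamini-Hochberg adjusted p under 0.05), 2.73% of all tested genes were called higher on the injured side in wt and 2.56% in cKO, and 0.184% and 0.178% lower. The 31 genes called lower in wt became 73 with scaling by library totals and 153 with DESeq2. All 3 genes passed the filter on low counts, but Hcar2 and Acod1 passed it through their injured-side libraries, so their difference between sides is partly set by that filter. Nothing about the genes is read from these counts, because the side difference was used to choose them. By size of the fitted log2 difference they stood at ranks 41 (Gpr84), 28 (Hcar2) and 25 (Acod1) in wt and 25, 45 and 10 in cKO.

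**Figure D1:**
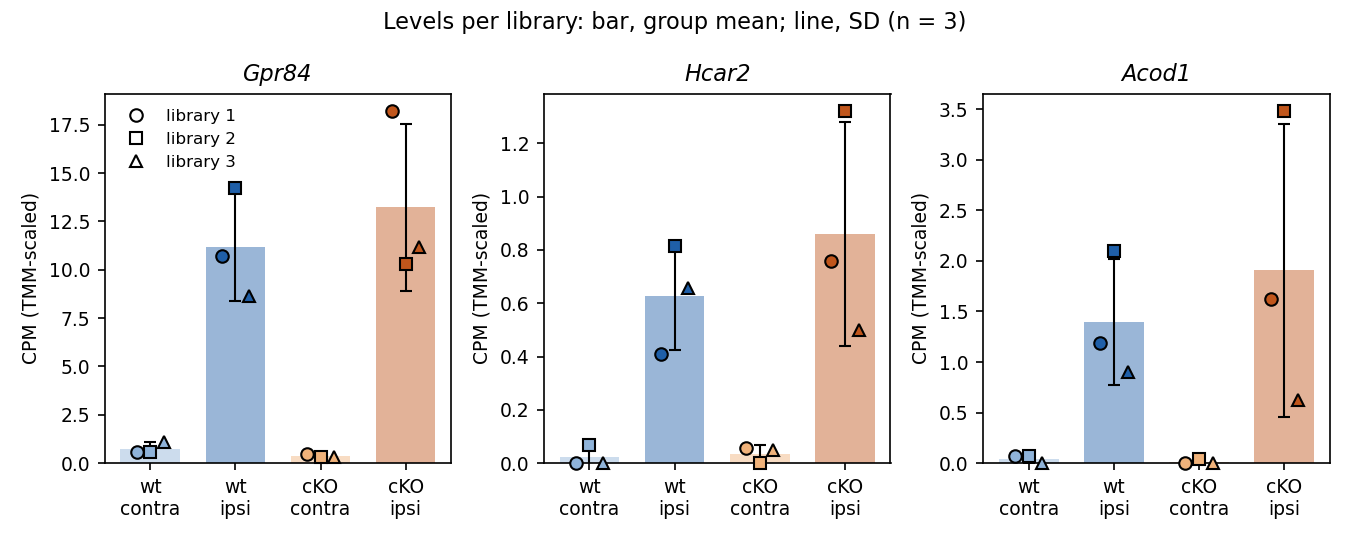
Level of Gpr84, Hcar2 and Acod1 (CPM, linear axes that differ between panels) in each of the 12 libraries, by genotype and side; bars are group means, lines the SD (n = 3) and point shapes the library number. Gpr84 lies between 8.64 and 18.2 CPM in the injured-side libraries and between 0.333 and 1.12 CPM in the opposite-side ones, and in each panel the wt and cKO points of the injured side overlap.

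Levels can be set side by side between genes only per transcript length, for which the deposited TPM were used, which are RSEM's transcript abundances corrected for length. In ipsilateral cortex Gpr84 had 10.7, 12 and 7.28 TPM in wt libraries 1 to 3 and 18.2, 9.05 and 12.8 TPM in cKO libraries 1 to 3. Acod1 had 0.74, 1.11 and 0.48 TPM in wt and 1.01, 1.92 and 0.45 TPM in cKO. Hcar2 had 0.36, 0.61 and 0.49 TPM in wt and 0.66, 1.02 and 0.5 TPM in cKO. Gpr84 was therefore the most abundant of the 3 transcripts in each of the 6 injured-side libraries.

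The ratio of Gpr84 to Acod1 in TPM was 14.5, 10.8 and 15.2 in wt ipsilateral libraries 1 to 3, and 18, 4.71 and 28.4 in cKO. Gpr84 to Hcar2 gave 29.8, 19.6 and 14.9 in wt, and 27.5, 8.87 and 25.6 in cKO. Acod1 to Hcar2 gave 2.06, 1.82 and 0.98 in wt, and 1.53, 1.88 and 0.9 in cKO. Both ratios of Gpr84 were lowest in cKO library 2, and the ranges of each ratio overlapped between the genotypes. Acod1 lay slightly below Hcar2 in library 3 of each genotype, where the cKO values rest on 5 and 4 counts.

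Deletion of STING in Cx3cr1-expressing cells was the genetic variable of the study, and the genotypes were compared on each side. None of the 3 genes differed between cKO and wt past the test on either side. In ipsilateral cortex the log2 difference (cKO minus wt) of Gpr84 was 0.27 ± 0.23 (SE; 95% interval −0.23 to 0.77; edgeR adjusted p = 0.925). For Hcar2 it was 0.55 ± 0.48 (−0.48 to 1.57; edgeR adjusted p = 0.924). For Acod1 it was 0.56 ± 0.48 (−0.48 to 1.6; edgeR adjusted p = 0.924). The cKO mean was the higher one for all 3 genes, but the libraries of the genotypes overlapped for each. Exact two-sided permutation tests of CPM gave p = 0.6, 0.5 and 0.7, where 3 against 3 libraries cannot go below 0.1.

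The ipsilateral genotype difference of Gpr84 and that of Acod1 turned sign when 1 library was left out. Without cKO ipsilateral library 1 Gpr84 gave −0.06, and without cKO ipsilateral library 2 Acod1 gave −0.17. Without the same library 2, Hcar2 gave 0.09. Without the shallow cKO ipsilateral library 3 the differences were 0.35 for Gpr84, 0.72 for Hcar2 and 0.86 for Acod1, and none passed the test. The intervals from all libraries do not exclude a cKO level higher by more than 1 log2 unit for Hcar2 and Acod1, and they do not reach below −0.48 for any of the 3 genes.

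In contralateral cortex all 3 cKO libraries had less Gpr84 than all 3 wt libraries. The log2 difference was −0.88 ± 0.46 (95% interval −1.86 to 0.11; unadjusted p = 0.0706 and adjusted p = 1 by edgeR). The exact permutation p was 0.1, the smallest that the design allows, and 3.6% of tested genes had contralateral cKO libraries all below wt. Without wt contralateral library 3, which held the highest value, the difference was −0.49. Hcar2 (0.58 ± 1.46) and Acod1 (−1.55 ± 2.17) had 4 counts or fewer in total in each contralateral group, and no genotype difference could be resolved at that depth (edgeR adjusted p = 1 for both; exact permutation p = 1 and 0.4).

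The injury difference itself was compared between genotypes with the interaction term. For Gpr84 the side difference was larger in cKO by 1.14 ± 0.52 log2 units (95% interval 0.04 to 2.25; unadjusted p = 0.0398, adjusted p = 1 by edgeR). It does not pass the correction over all genes. Its value ranged from 0.76 without wt contralateral library 3 to 1.4 without cKO contralateral library 1, and rests on contralateral levels of 1.12 CPM or less. For Hcar2 the term was −0.04 ± 1.54 (−3.32 to 3.24), and for Acod1 it was 2.11 ± 2.22 (−2.64 to 6.86), both with an edgeR adjusted p of 1.

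The share of all genes called between genotypes by edgeR was 0% on each side and 0% for the interaction, with 987, 455 and 381 of 16836 genes at an unadjusted p under 0.05. DESeq2 called 12 genes in ipsilateral and 3 in contralateral cortex and 0 for the interaction. Over all alternatives tried, adjusted p of the genotype comparisons and interaction ranged from 0.293 to 1 for Gpr84, 0.828 to 1 for Hcar2 and 0.812 to 1 for Acod1.

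**Figure D2:**
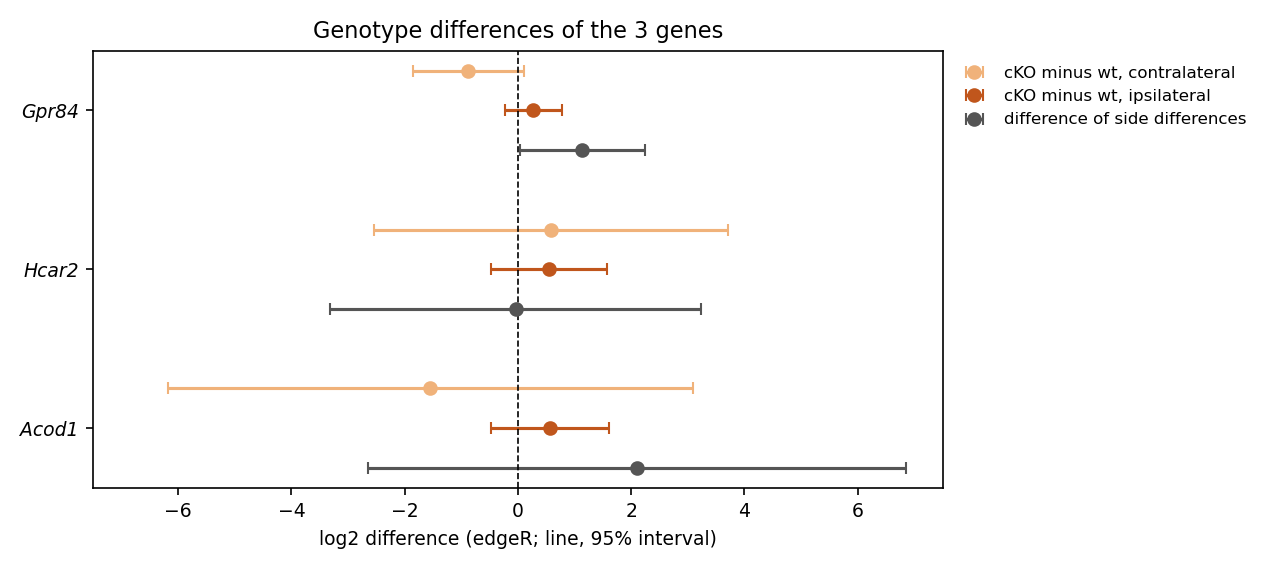
Fitted log2 difference between cKO and wt on each side, and how far the side differences of the genotypes differ, for Gpr84, Hcar2 and Acod1 (points, edgeR; lines, 95% intervals). The ipsilateral estimates are 0.27, 0.55 and 0.56 with intervals that include 0, and the contralateral intervals of Hcar2 and Acod1 are wide because few reads were counted there.

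The 3 genes did not peak in the same injured-side libraries. In wt, library 2 was the highest for each gene, whereas in cKO library 1 was the highest for Gpr84 and library 2 for Hcar2 and Acod1. Acod1 was lowest in cKO ipsilateral library 3, at 0.622 CPM, and Gpr84 was lowest in wt ipsilateral library 3. Hcar2 was lowest in wt ipsilateral library 1. The spread of Acod1 among cKO libraries, an SD of 1.45 CPM about a mean of 1.91, was the widest of the 6 injured-side groups relative to its mean.

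The cells that carry the 3 transcripts cannot be identified from bulk tissue, where fewer cells of a type and less RNA per cell cannot be told apart. Marker genes of the candidate cell types were therefore summed per library. The sum of 15 neutrophil markers was 5.58 to 6.81 CPM in the 6 contralateral libraries. Csf3r and Mmp9 held most of that contralateral sum, with means of 4.04 and 1.53 CPM in wt and 4.08 and 1.16 CPM in cKO. The contralateral sum is therefore mainly the level of these genes. On the injured side the sum was 14.7, 39.8 and 24 CPM in wt libraries 1 to 3 and 32.7, 59.1 and 26 CPM in cKO. Its highest library, cKO ipsilateral library 2, was also the highest for Hcar2, Acod1 and the monocyte and border macrophage markers, but not for Gpr84. Of the 11 neutrophil markers that passed the filter, 10 rose on the injured side in wt and 11 in cKO, against 2.73% and 2.56% of all tested genes. Several, such as Mmp8, passed that filter through their injured-side libraries, which partly sets these counts. These counts fell to 5 without wt ipsilateral library 2 and to 7 without cKO ipsilateral library 2.

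Among defining neutrophil genes, Ly6g had 0 counts in all contralateral libraries and in 2 of 3 ipsilateral libraries of each genotype, with 1 count in the others. Camp had 0 to 2 counts throughout. Mmp8, a collagenase stored in neutrophil granules, had 0 counts in all contralateral libraries, 5 to 29 in wt and 2 to 35 in cKO ipsilateral libraries. S100a9 averaged 0.2 and 6.28 CPM on the contralateral and ipsilateral side of wt, and 0.151 and 10.6 CPM in cKO. Cxcr2 held 0 to 2 contralateral and 5 to 49 ipsilateral counts, and Retnlg 0 to 2 and 4 to 59. Ngp held 0 to 2 and 1 to 17 counts, and Ltf 0 to 4 and 1 to 18. The part of neutrophil RNA in the levels of Gpr84, Hcar2 and Acod1 was not tested.

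The summed level of microglial markers overlapped between sides in both genotypes. For its 14 genes it ran from 471 to 482 CPM contralaterally and 448 to 553 CPM ipsilaterally in wt, and from 439 to 486 and 416 to 509 CPM in cKO. Tmem119, a marker of resting microglia, was the only one of the 14 that the test called, and it fell in both genotypes (log2 −0.71, edgeR adjusted p = 0.00564 in wt, and −0.69, adjusted p = 0.00797 in cKO). The call in cKO was lost without cKO ipsilateral library 1. The sum of 13 markers of monocytes and border macrophages ran from 28 to 29.5 CPM contralaterally and 29.3 to 39.1 CPM ipsilaterally in wt, and from 22.1 to 26.4 and 31.8 to 41.3 CPM in cKO. These ranges overlapped between sides in wt and did not in cKO. Vcan and Lyz2 were the largest members of this sum, with contralateral means of 9.29 and 8.38 CPM in wt and 9.91 and 6.57 CPM in cKO. Of its 8 tested members, 3 had a log2 difference above 0 in wt and 5 in cKO, with medians of −0.22 and 0.34. By edgeR 0 were called in wt and 1, Lyz2, in cKO, against 2.73% and 2.56% of all tested genes called higher. The Lyz2 call was lost without cKO contralateral libraries 1 or 2 or cKO ipsilateral library 2. Ccr2, a receptor of recruited monocytes, held 0 to 4 contralateral and 1 to 9 ipsilateral counts. Red cell transcripts were also higher on the injured side, with sums of 597 to 2100 CPM in wt and 602 to 933 CPM in cKO against 2.1 to 242 CPM in all contralateral libraries. Their part in the results was not tested either.

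**Figure D3:**
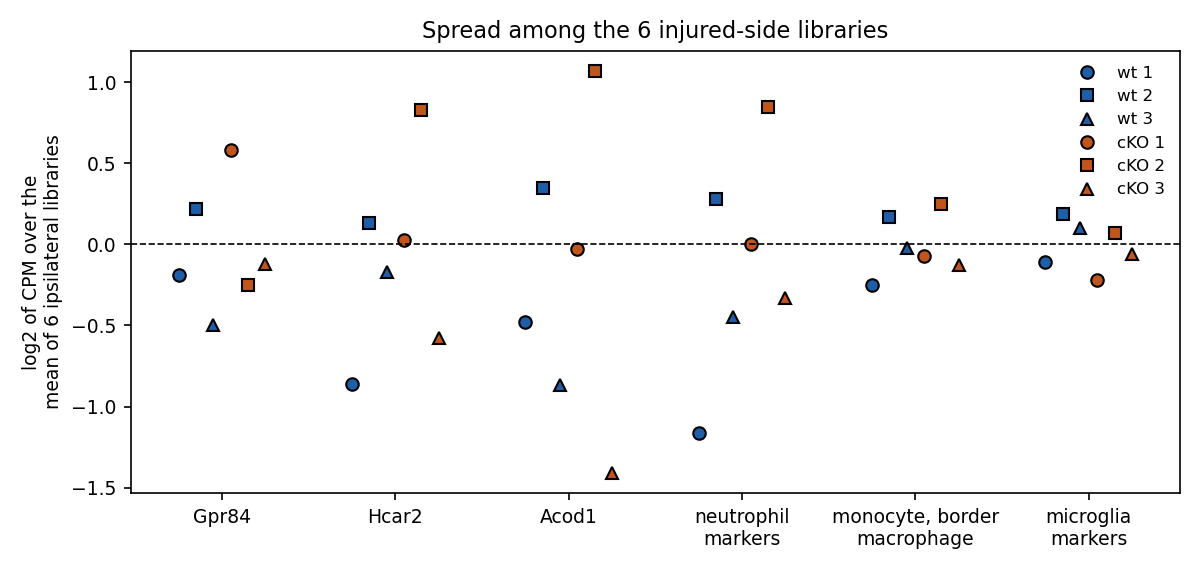
Level of each gene and summed marker level in the 6 injured-side libraries, as log2 of CPM over the mean of those 6; colour is genotype and point shape the library number. The square of cKO library 2 is the highest point for Hcar2, Acod1, the neutrophil markers and the monocyte and border macrophage markers, the circle of cKO library 1 is the highest for Gpr84, and microglial markers spread least.

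Genes with the most similar profile over the 12 libraries were found by the root mean square difference of log2 CPM around each gene's mean, among 14686 other coding genes. For Gpr84 the 5 nearest were Il1b (0.34), the cytokine interleukin-1 beta, then Atf3 (0.5), C5ar1 (0.51), Fosl1 (0.51) and Nlrp3 (0.52). Atf3 and Fosl1 are stress-responsive transcription factors, C5ar1 is a complement anaphylatoxin receptor and Nlrp3 an inflammasome sensor. Il1b averaged 0.616 and 9.97 CPM on the contralateral and ipsilateral side of wt, and 0.417 and 13.5 CPM in cKO.

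For Hcar2 the nearest were Cxcr2 (0.36), the chemokine receptor of neutrophils, then Tgif1 (0.36), Socs3 (0.37), Retnlg (0.39) and H2-Q10 (0.4). For Acod1 they were Cd14 (0.5), a coreceptor for lipopolysaccharide, then Cytip (0.51), Clec4d (0.55), Retnlg (0.56) and C5ar1 (0.57). Retnlg, a resistin-like gene of neutrophils, was near both Hcar2 and Acod1, and C5ar1 near both Gpr84 and Acod1. The 3 genes were not each other's nearest: seen from Gpr84, Acod1 stood at rank 22 and Hcar2 at rank 47. The prior count of 2 compresses the profiles of low genes such as Hcar2, and all libraries share the side difference, so the distances are a description.

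The other receptors and enzymes around the 3 genes are described from lists that were drawn up with earlier results of these data known. The median log2 difference between sides over all tested genes was −0.01 in both genotypes. Of those genes, 2.73% in wt and 2.56% in cKO were called higher by edgeR, and 0.184% and 0.178% lower. Of the 5 other fatty acid receptors only Cd36, a scavenger receptor and fatty acid transporter, had enough reads to be tested, and it did not pass (log2 0.61 in wt, edgeR adjusted p = 0.472, and 1.16 in cKO, adjusted p = 0.194). Free fatty acid receptors Ffar1, Ffar2, Ffar3 and Ffar4 were too low to test. Gpr84 was thus the only G protein-coupled fatty acid receptor with enough reads among those listed.

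Hcar1, the lactate receptor, is the nearest coding gene to Hcar2, with 11236 bp between them, and in contrast to Hcar2 its mean was lower on the injured side. Hcar1 averaged 1.24 and 0.667 CPM on the contralateral and ipsilateral side of wt, and 1.16 and 0.296 CPM in cKO. It fell in cKO (log2 −1.77 ± 0.36, edgeR adjusted p = 0.00859) and did not pass in wt (−0.89 ± 0.3, adjusted p = 0.154). The difference between these responses was not significant (−0.88 ± 0.47, edgeR adjusted p = 1), and the call in cKO was lost without cKO ipsilateral library 1. Gpr35, a receptor of kynurenate, rose in cKO (2.73 ± 0.6, edgeR adjusted p = 0.00945) and did not pass in wt (1.92 ± 0.52, adjusted p = 0.0542). The difference between these responses was 0.81 ± 0.79 (edgeR adjusted p = 1). Gpr35 also entered the test through its injured-side libraries, with contralateral means of 0.202 CPM in wt and 0.123 CPM in cKO. Its call was lost without cKO contralateral library 2 or cKO ipsilateral library 2. These were the 2 of 5 listed receptors of hydroxy acids, cycle intermediates and related metabolites that could be tested.

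All 4 proton-sensing receptors were tested, and 1 rose in wt and 2 in cKO, against 2.73% and 2.56% of all tested genes. Gpr4, an endothelial receptor, rose by 0.85 ± 0.19 log2 units in wt (edgeR adjusted p = 0.0234) and 0.99 ± 0.2 in cKO (adjusted p = 0.00962). Gpr132 rose in cKO (2.96 ± 0.9, edgeR adjusted p = 0.0469) and did not pass in wt (2.23 ± 0.7, adjusted p = 0.0829). The difference between these responses was 0.74 ± 1.14. Gpr132 passed the low-count filter through its injured-side libraries. Its call was lost without any 1 of 10 of the 12 libraries and by DESeq2. The calls of Gpr4 were lost in wt without contralateral library 1 or ipsilateral libraries 2 or 3, and in cKO without libraries 1 or 2 of either side. Of 12 nucleotide and adenosine receptors, 1 rose in wt and 0 in cKO. It was P2ry2, a receptor of extracellular ATP and UTP (1.3 ± 0.27, edgeR adjusted p = 0.0147). In cKO P2ry2 gave 1.05 ± 0.29 (adjusted p = 0.0717), and the difference between these responses was −0.25 ± 0.4. Its call in wt was lost when wt contralateral library 2 or wt ipsilateral libraries 2 or 3 were left out.

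GPR84 and HCAR2 signal through Gi proteins. Of 16 tested genes of a Gi pathway list, which also holds general regulators of G protein signals, 2 rose in wt and 3 in cKO. Over all tested genes, 2.73% rose in wt and 2.56% in cKO. Rgs2, a regulator that shortens G protein signals and is not particular to Gi, kept its call without any single library. It rose by 0.72 ± 0.08 in wt (edgeR adjusted p = 4.52e-05) and 0.77 in cKO (adjusted p = 2.51e-05). Rgs1 rose by 1.98 ± 0.43 in wt (edgeR adjusted p = 0.0166) and 1.8 ± 0.47 in cKO (adjusted p = 0.0486). The Rgs1 call in wt was lost without wt contralateral libraries 1 or 2 or wt ipsilateral library 2, and that in cKO without any 1 of 10 libraries. Rgs16 rose in cKO (0.8 ± 0.18, edgeR adjusted p = 0.0204) and did not pass in wt (0.41 ± 0.17, adjusted p = 0.289). Its call was lost without cKO contralateral libraries 1 or 3 or cKO ipsilateral libraries 1 or 2. The medians of the list were 0.06 in wt and 0.11 in cKO.

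Enzymes that meet the substrates of these proteins moved little at 2 hr. Of 17 enzymes and carriers of the tricarboxylic acid cycle around aconitate, 0 passed in wt and 1 in cKO, with medians of −0.08 and −0.05. The latter was Idh3a, a subunit of isocitrate dehydrogenase, which fell by 0.22 ± 0.05 on the log2 scale in cKO (edgeR adjusted p = 0.0423). That call was lost without any 1 of 11 libraries. In wt Idh3a gave −0.15 ± 0.05 (edgeR adjusted p = 0.195). Of 10 genes of ketone body synthesis, use and transport, 0 passed in either genotype, with medians of 0 and −0.07. Oxct1, which activates acetoacetate for use as fuel, had means of 322 CPM on the contralateral and 300 CPM on the ipsilateral side of wt. Of 15 tested genes of fatty acid oxidation and related steps, 0 passed in either genotype, with medians of 0.08 and 0.03. These genes were not only those of medium chains, and the listed gene of medium-chain fatty acid activation was too low to test.

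A list around the induction of Acod1 in macrophages held receptors, an adaptor and transcription factors known to drive it, and Tnfaip3, which acts against NF-kB. Of these 15 genes, 10 rose and 0 fell in each genotype, with medians of 0.73 in wt and 0.91 in cKO. The share of all tested genes called higher was 2.73% in wt and 2.56% in cKO. Leaving Tnfaip3 aside, 9 of 14 rose in each genotype. With 1 library left out, 8 to 10 rose in wt and 7 to 10 in cKO. Limma on log2 TPM plus 1 called 4 of 14 higher in wt and 6 of 14 in cKO. Tnfaip3, an NF-kB target that restrains NF-kB, rose by 2.23 ± 0.15 in wt (edgeR adjusted p = 2.77e-07) and 2.33 in cKO (adjusted p = 1.6e-07). Rel, an NF-kB subunit, rose by 1.89 ± 0.19 in wt (adjusted p = 2.65e-05) and 1.93 in cKO (adjusted p = 2.66e-05). Tlr2, a receptor of bacterial lipopeptides, rose by 2.9 ± 0.35 in wt (adjusted p = 0.000109) and 3.4 ± 0.37 in cKO (adjusted p = 2.51e-05). Cebpb, a myeloid transcription factor, rose by 1.25 ± 0.17 in wt (adjusted p = 0.00031) and 1.63 ± 0.16 in cKO (adjusted p = 1.78e-05). These 4 genes kept their calls without any single library.

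Of 16 genes that itaconate is known to act on, directly or through their products, 4 rose in wt and 5 in cKO, and 0 fell. Among all tested genes, 2.73% in wt and 2.56% in cKO were called higher. The list does not separate genes or products that itaconate raises from those it restrains, so a count of rises has no single meaning. The medians of the list were 0.05 and 0.16, beside −0.01 for all tested genes. The members that rose were Atf3 (log2 4.39 ± 0.2 in wt), Nlrp3 (3.77 ± 0.31), Nfkbiz (3.07 ± 0.15), an inducible NF-kB cofactor, and Hmox1 (0.8 ± 0.19, edgeR adjusted p = 0.0303), the haem-degrading enzyme, and in cKO also Nfe2l2. The call of Hmox1 in wt was lost without wt contralateral libraries 1 or 2 or wt ipsilateral libraries 2 or 3. That of Nfe2l2 in cKO (0.61 ± 0.13, edgeR adjusted p = 0.0183) was lost without cKO contralateral library 3 or cKO ipsilateral libraries 1 or 2. In wt Nfe2l2 gave 0.46 ± 0.13 (adjusted p = 0.0738). In both comparisons of cKO with wt and in the interaction, 0 genes of any of these lists were called by edgeR.

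**Figure D4:**
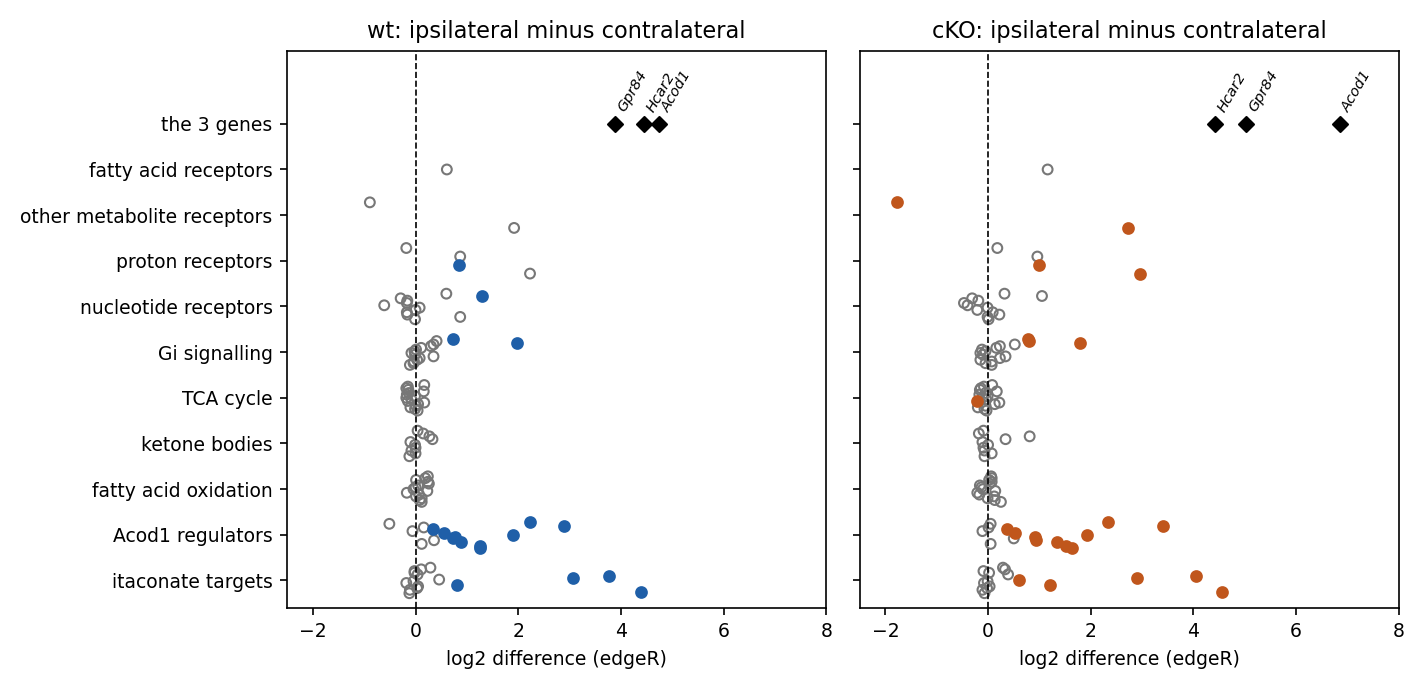
Log2 difference between ipsilateral and contralateral cortex (edgeR) in wt and cKO for Gpr84, Hcar2 and Acod1 (diamonds, not tested) and for the tested genes of each list (circles; filled where the adjusted p is under 0.05; shifted vertically for visibility). The diamonds lie at 3.89 to 6.85, and these 3 genes were chosen by this difference, so their distance from the lists is no result. No ketone body or fatty acid oxidation gene is filled, the highest ketone body gene in cKO being Slc16a3 at 0.81. In each genotype 10 of 15 genes listed as regulators of Acod1 are filled.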

How the data were processed

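Per the submitters' processing notes, the authors used Trim Galore 0.6.4, STAR 2.7.1a and RSEM 1.2.28 with genome build mm10, and the deposited tables hold estimated counts per gene and TPM. The notes also name DESeq2 1.36.0. Per the labels' protocols, libraries were made from Trizol-isolated RNA with a stranded mRNA kit. The strand setting and annotation of the counting are not given in the sources used here, and RSEM shares reads between similar genes. No 50-base window of a Gpr84, Hcar2 or Acod1 transcript occurs in a transcript of another gene (0 of 1676, 1881 and 2574 windows), apart from antisense overlap. Symbols and coordinates came from GENCODE M21 (55141 identifiers matched). Of 55487 genes, 22 to 49 per library had a count of 0 and a TPM above 0.

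Counts were filtered with filterByExpr (minimum count 10, minimum total 15), leaving 16836 genes, given TMM scaling factors and modelled with edgeR 4.0.16 in R 4.3.3 over all 12 libraries. Quasi-likelihood p-values were adjusted over all tested genes (Benjamini-Hochberg, threshold 0.05). SEs are from the fitted weights and quasi-dispersion. No libraries were identical. Alternatives were DESeq2 1.42.0 and its size factors, library totals, no filter, limma 3.58.1 on log2 TPM with 1 or 0.1 added (mean of at least 1 TPM), a replicate block and each library left out. List counts without cKO ipsilateral library 3 were added after seeing the data. The members and lists were chosen with earlier results of these data known.

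Named genes were the 3 members, up to 4 called genes per list by smallest adjusted p, and the 5 most similar profiles per member. Where no list gene was called, the genes with the highest mean CPM were eligible. Named outside that rule, after their values were seen, were Tmem173, Gm49482, Ly6g, Camp, Mmp8, Csf3r, Mmp9, Ngp, Ltf, Ccr2, Vcan, Nfe2l2, Slc16a3 and Ffar1 to Ffar4. Some genes on the lists are not reported here. In simulated counts for 16836 genes, the fit recovered 86% (wt sides), 90% (cKO sides), 90% (genotypes, ipsilateral), 89% (contralateral) and 77% (interaction) of changes of 2-fold, with 12 to 16 false calls. Simulated changed genes had a mean of at least 1 CPM over all 12 libraries, and all changes were increases. Hcar2 lay below that level in every group, and Acod1 in its mean over all 12 libraries, so the simulation covered neither gene. The contralateral means of Gpr84 (0.754 CPM in wt, 0.391 CPM in cKO) and Acod1 (0.0461 and 0.0142 CPM) also lay below it. Recovery at such levels was not simulated.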

Additional observations from a re-analysis of the deposited data

How the results depend on the processing

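DESeq2 size factors, library totals and the replicate block moved none of the 5 counts of called genes by over 1.5 times, and none of the 15 differences of Gpr84, Hcar2 and Acod1 by more than 1 SE. Called genes between sides were 491 in wt and 461 in cKO. They became 991 and 968 with no filter, 139 and 174 with limma on log2 TPM plus 1, and 138 and 170 with 0.1 added, and 766 in wt with DESeq2. With 1 library left out they ranged from 250 (without wt contralateral library 2) to 861 (without wt contralateral library 3) in wt, and from 277 (without cKO ipsilateral library 2) to 579 (without wt contralateral library 3) in cKO. Genes called lower in wt, 31 of 491, were 73 with library totals, 153 with DESeq2, 139 with no filter and 2 to 174 with 1 library left out (without wt contralateral libraries 2 and 3). In cKO they were 30, and 105 with DESeq2 and 112 with no filter. Genotype calls, 0 on each side, became 223 ipsilateral and 96 contralateral with no filter, 12 and 3 with DESeq2, 1 ipsilateral with limma at either added value, and 0 to 2 contralateral with 1 library left out. Interaction calls, 0 at first, became 72 with no filter and 1 with limma at either added value. The cause was not tested. Limma on TPM gave Gpr84 side differences of 2.61 in wt and 3.3 in cKO with 1 added, which shrinks low values by construction, and could not be run for Hcar2 and Acod1, whose mean was under 1 TPM.

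With 1 library left out, log2 differences ranged as follows. The ipsilateral genotype difference was −0.06 to 0.47 for Gpr84, 0.09 to 0.77 for Hcar2 and −0.17 to 0.97 for Acod1. The contralateral one was −1.14 to −0.49 for Gpr84, −0.05 to 3.06 for Hcar2 and −3.37 to −0.92 for Acod1. The interaction was 0.76 to 1.4 for Gpr84, −2.52 to 0.59 for Hcar2 and 1.38 to 3.93 for Acod1. The Hcar2 interaction, −0.04 from all libraries, was 0.13 without cKO ipsilateral library 3. Side differences were 3.68 to 4.28 (wt) and 4.7 to 5.29 (cKO) for Gpr84, 3.95 to 6.94 and 3.95 to 5.05 for Hcar2, and 4.24 to 5.09 and 6.13 to 8.68 for Acod1. Hcar2 and Acod1 are limited by depth, since single contralateral reads set these values. Without cKO ipsilateral library 3, called genes in cKO went from 0 to 1 among ketone body genes and from 1 to 2 among monocyte markers. Of the list counts, neutrophil markers called higher went from 10 and 11 (wt, cKO) to 3 and 5 of 7 with limma on TPM, Gi pathway genes from 2 and 3 to 6 and 5 with no filter and to 1 and 1 with limma plus 1, and proton receptors from 1 and 2 to 0 and 0 with limma. With no filter 1 and 2 ketone body genes were called higher.

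Ipsilateral and contralateral libraries share replicate numbers, but the labels do not say that they share an animal. Deviations from the group means of same-numbered libraries correlated at −0.0043, 0.195 and 0.0936 in wt and 0.112, 0.183 and 0.0851 in cKO (14496 genes of at least 1 CPM), so pairing was not taken as given. Over all 16836 tested genes, 6 of 6 libraries in cKO correlated best with their own number, and 3 of 6 in wt. With the replicate block 567 genes were called between sides in wt, 533 in cKO and 0 in the other comparisons. The ipsilateral genotype differences were then 0.23 for Gpr84, 0.49 for Hcar2 and 0.36 for Acod1. For the genotype comparisons the block joined equal library numbers of wt and cKO, which are different mice. These values are therefore not paired by animal. The block also moved Gi pathway calls in wt from 2 to 5 and proton receptor calls in wt from 1 to 2, and it removed the call of Idh3a in cKO.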
